A study of Mus musculus with 24 samples.

Results

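Transcripts of 10 Notch pathway genes were examined in epithelial cells sorted from mouse trachea: the ligands Dll1, Jag1 and Jag2, the ligand-like gene Dlk2, the receptors Notch1, Notch2 and Notch3, and the target genes Hes1, Hey1 and Nrarp. The genes were chosen by name, with earlier results of these same libraries known, and all 10 were found among the 35855 genes of the tables. The filter on low counts left 9 of them among the 12211 genes tested, and Nrarp was the member that did not pass it. The study held 24 bulk RNA libraries in 3 groups of 8, each library made from 1000 sorted cells with the SmartSeq2 protocol for cell populations. By the series title the study concerned subsets of basal cells, and the groups were airway epithelial cells labelled BCAM HI (BCAM high), cells labelled BCAM LO (BCAM low), and cells labelled DIFFERENTIATED EPCS (differentiated); BCAM is a laminin-binding surface protein. All mice were untreated wild-type (WT) females, C57BL/6 by the series title, and the sources used here do not give their age. Each group had 5 libraries of batch 1 (replicates 1 to 5) and 3 of batch 2 (replicates 6 to 8), and the sources do not say what the batch number stands for.

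Notch signalling passes between touching cells. A ligand of the Delta or Jagged family on one cell binds a Notch receptor on its neighbour, proteases then cut the receptor, and the freed intracellular domain enters the nucleus, joins the DNA-binding protein RBPJ and a Mastermind coactivator, and raises transcription of HES and HEY repressors and of the feedback inhibitor Nrarp. In the airway, basal cells are the stem cells of the surface epithelium, and Notch activation in their progeny is known to favour the secretory over the ciliated fate.

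Library totals ran from 1824619 to 4440072 estimated counts, and 15358 to 19619 genes had a count per library. The summed level of 10 basal markers (in CPM, the count scaled to the library total after TMM normalization) was 8235 to 11096 in BCAM high libraries, 7030 to 8534 in BCAM low libraries and 368 to 2801 in the differentiated ones. The 8 secretory markers summed to 295974 to 430333 CPM in the differentiated libraries of batch 1, but to 13933, 20590 and 90255 CPM in the 3 of batch 2. All 8 markers of thyroid follicular cells had counts in the differentiated group, where they summed to 13809 to 116911 CPM (mean 18878 in batch 1 and 83181 in batch 2), against at most 1286 CPM in any BCAM library. Markers of parathyroid summed to 15.6 to 29215 CPM in differentiated, and the 8 ciliated markers only to 117 to 645 CPM. The 6 neuroendocrine markers summed to 18.1 to 11455 CPM in differentiated and to at most 193 CPM in a BCAM library. That list shares Chga with the parathyroid list, and both sums peaked in differentiated replicate 2, so they are not separate readings. In BCAM low replicate 7 the parathyroid sum reached 458 CPM. Within the BCAM groups, the 8 secretory markers had a median sum of 38147 CPM in BCAM high and 63548 CPM in BCAM low. The 6 suprabasal markers summed to 625 to 1279 CPM in BCAM high and 1228 to 3316 CPM in BCAM low, with a BCAM low mean of 3077 CPM for batch 1 libraries and 1481 CPM for those of batch 2. In BCAM low, the ciliated sum was 8.04 to 22.6 CPM in batch 1 and 191 to 350 in batch 2. The 6 fibroblast markers had a median sum of 423 CPM in BCAM high, 263 CPM in BCAM low and 40.0 CPM in differentiated. In BCAM high they averaged 511 CPM in batch 1 and 191 CPM in batch 2. The 7 immune markers averaged 142 and 29.0 CPM in those batches of BCAM low. All 3 groups thus held marker transcripts of cell types besides airway epithelium, in amounts that differed by batch. Those in differentiated were of several types, and the part of any of them in the results below was not tested. In such bulk samples, fewer cells of a type and less RNA per cell cannot be told apart.

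The values that led to the choice of these genes came from comparisons between the 3 groups, so group differences of the 10 genes are given as descriptions, with no p. A gene is called where edgeR's quasi-likelihood test gave a Benjamini-Hochberg (BH) adjusted p under 0.05 over all 12211 genes. Between BCAM high and BCAM low, 3 of the 9 tested genes were called, where 7.02% of all genes tested were called. Dll1 and Dlk2 were called higher in BCAM high (2.43% of all genes were) and Notch3 lower (4.59% were). Between BCAM high and differentiated, 7 were called (Dll1, Jag1, Jag2, Dlk2 and Notch1 higher, Notch2 and Notch3 lower), against 41.3% of all genes. Between BCAM low and differentiated, 6 were called (the same genes without Notch3), against 33.5% of all genes. Hes1 and Hey1 were not called in any of the 3 comparisons. With transcript length offsets, or with limma on log2(TPM + 0.1), Dlk2 alone was called between the BCAM groups. The 8 values of one group did not overlap the 8 of the other for Dll1, Notch2 and Notch3 between the BCAM groups (1.5% of all genes), for 7 members between BCAM high and differentiated (13.4% of all genes), and for Jag1, Jag2 and Dlk2 between BCAM low and differentiated (7.27% of all genes). Each group enters 2 of these comparisons, so they are not independent of each other, and nothing is read from these counts, since such comparisons led to the choice of the genes.

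The upstream sequence is shown for the genes that were called or did not overlap between the BCAM groups (Dll1, Dlk2, Notch2 and Notch3) and for Jag1 and Nrarp, which hold motif matches, as Notch2 also does. RefSeq promoter windows (build GRCm38.p6) were found for 8 of the 10 genes, and the lines below give the bases 5′ to 3′ that lie upstream of the first annotated exon. Capitals mark the motif letters found.
Dll1, chr17:15375977-15376073, minus strand: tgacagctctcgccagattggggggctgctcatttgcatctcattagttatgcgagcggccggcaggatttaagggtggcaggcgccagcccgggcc
Jag1, chr2:137116645-137116770, minus strand: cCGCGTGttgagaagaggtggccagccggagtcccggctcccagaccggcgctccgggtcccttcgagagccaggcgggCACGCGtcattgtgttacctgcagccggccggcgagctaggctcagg
Dlk2, chr17:46297233-46297420, plus strand: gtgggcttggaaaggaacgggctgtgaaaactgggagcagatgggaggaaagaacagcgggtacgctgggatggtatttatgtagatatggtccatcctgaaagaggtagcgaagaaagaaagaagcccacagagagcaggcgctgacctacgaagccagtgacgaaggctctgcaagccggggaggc
Notch2, chr3:98013288-98013526, plus strand: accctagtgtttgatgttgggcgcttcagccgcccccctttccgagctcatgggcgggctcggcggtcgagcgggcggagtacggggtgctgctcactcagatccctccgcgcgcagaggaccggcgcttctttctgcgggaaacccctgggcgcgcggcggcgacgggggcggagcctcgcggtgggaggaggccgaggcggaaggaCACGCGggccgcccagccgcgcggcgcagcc
Notch3, chr17:32166891-32167140, minus strand: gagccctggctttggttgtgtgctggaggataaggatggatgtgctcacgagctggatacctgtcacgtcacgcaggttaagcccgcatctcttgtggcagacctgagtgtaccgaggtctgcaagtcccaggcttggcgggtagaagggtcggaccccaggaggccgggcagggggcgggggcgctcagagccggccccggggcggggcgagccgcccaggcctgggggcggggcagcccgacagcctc
Nrarp, chr2:25180508-25180757, plus strand: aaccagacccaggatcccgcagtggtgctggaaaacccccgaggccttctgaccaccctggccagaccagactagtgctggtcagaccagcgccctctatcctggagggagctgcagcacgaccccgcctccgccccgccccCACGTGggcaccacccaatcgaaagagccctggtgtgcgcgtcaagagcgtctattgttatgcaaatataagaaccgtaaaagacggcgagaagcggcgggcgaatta
Motifs were searched on both strands in the 250 bases before each RefSeq start. That start lay 281, 153 and 124 bases from the start of the main transcript in Jag2, Dll1 and Jag1. The Jag2 window began inside an annotated exon, and only the first 97 bases of Dll1 and 126 of Jag1 lay before one. The search thus included transcribed sequence. The RBPJ motif GTGGGAA was found in 5.42% of all 32851 promoter windows and in 0 of these 8. The 8 leave out the targets Hes1 and Hey1, which had no window. With so low a share over all windows, 0 of 8 does not set these genes apart. The motif CACGCG, which HES and HEY repressors are known to bind, was found in 7.62% of all windows, with 2 matches in Jag1 and 1 in Notch2. The E-box CACGTG, which is its own reverse complement and begins with the same letters as CACGCG, was found in 6.02% of all windows and 1 time in Nrarp, where it overlapped no other match. A match is a run of letters, not a bound site.

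Dll1, a Delta-type ligand that activates receptors on neighbouring cells, stepped down across the 3 groups. Its lowest, median and highest levels were 39.8, 56.7 and 79.1 CPM in BCAM high, 9.70, 20.6 and 28.8 CPM in BCAM low, and 2.47, 3.95 and 14.7 CPM in differentiated. Every BCAM high library lay above every library of the other groups, while BCAM low and differentiated overlapped through differentiated replicate 6. The fitted log2 fold change was 1.50 (SE 0.24) between BCAM high and BCAM low, 3.33 (SE 0.28) between BCAM high and differentiated, and 1.83 (SE 0.29) between BCAM low and differentiated. On the fold scale BCAM high held 2.82-fold more Dll1 transcript than BCAM low. Within batch 1 the mean was 58.0, 21.8 and 4.01 CPM in BCAM high, BCAM low and differentiated, and within batch 2 it was 54.1, 16.6 and 8.42 CPM. In batch 2 alone the difference of BCAM low from differentiated, 1.03, was not called.

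Jag1, a Jagged ligand, did not separate the BCAM groups. Its levels were 52.3, 59.1 and 77.2 CPM (lowest, median and highest) in BCAM high, 49.9, 62.8 and 83.6 CPM in BCAM low and 20.1, 25.5 and 49.7 CPM in differentiated. Both BCAM groups lay above all differentiated libraries, BCAM low only by the narrow gap between 49.9 and 49.7 CPM. The log2 fold change was -0.09 (SE 0.14) between the BCAM groups, 1.04 (SE 0.15) for BCAM high over differentiated and 1.13 (SE 0.15) for BCAM low over differentiated. The excess of BCAM high over differentiated was 1.16 in batch 1 and 0.86 in batch 2.

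Jag2, the other Jagged ligand, was by CPM the highest of the 3 ligands in both BCAM groups and close to the limit of detection in differentiated. BCAM high held 157, 191 and 201 CPM and BCAM low 105, 137 and 176 CPM (lowest, median and highest). Differentiated libraries held 0, 2.30 and 3.46 CPM, from 33 counts in all 8 libraries. No differentiated library came near a BCAM library, and the BCAM groups overlapped. BCAM high exceeded differentiated by 6.39 (SE 0.21) on the log2 scale and BCAM low did so by 5.95 (SE 0.21). The difference between the BCAM groups, 0.44 (SE 0.14), was not called, although it was called in 4 of 12 alternative analyses. In batch 2 alone, where BCAM low averaged 107 CPM against 154 CPM in batch 1, that difference was 0.77.

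Dlk2 encodes a membrane protein with Delta-like EGF repeats that lacks the receptor-activating domain and is known to dampen Notch signalling. Its levels were 79.9, 123 and 159 CPM in BCAM high and 37.5, 49.9 and 86.3 CPM in BCAM low (lowest, median and highest). The BCAM groups overlapped through a single library, BCAM low replicate 2. The log2 fold change between them was 1.20 (SE 0.17), or 2.30-fold, and it was 1.13 within batch 1 and 1.33 within batch 2. In differentiated, 7 of 8 libraries had a count of 0 and replicate 8 had 3 counts, against 3544 counts in BCAM high and 1558 in BCAM low. The ratio of counts over library totals was 640 for BCAM high over differentiated, with an exact 95% conditional binomial interval of 219 to 3104. For BCAM low over differentiated it was 290, with an interval of 99.2 to 1410, and both intervals cover counting error only. Dlk2 was thus nearly absent from the differentiated libraries, while Dll1 and Jag1 transcripts were detected in all 8 of them.

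**Figure D1:**
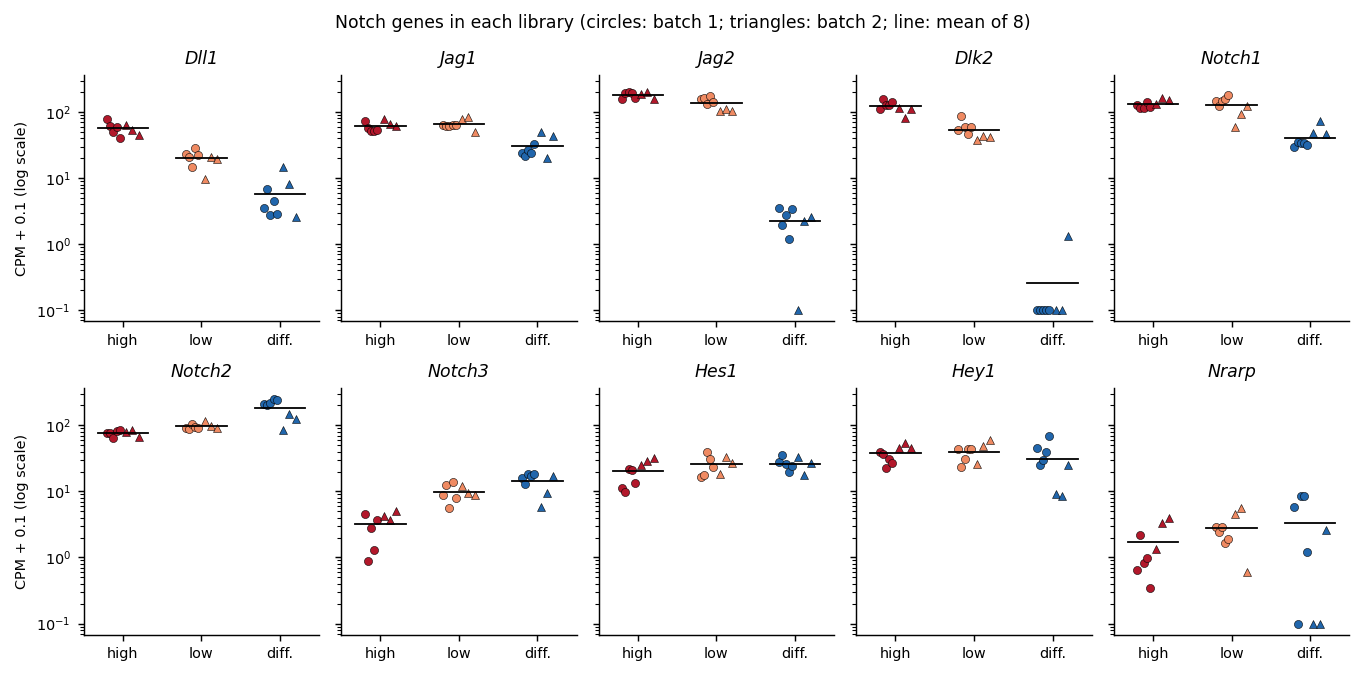
Level of each of the 10 genes in each library, in CPM with 0.1 added and on a log axis; circles are batch 1, triangles batch 2, and the line is the mean of 8 libraries. Dll1 is above the other groups in all 8 BCAM high libraries, Notch3 is below them there, and Dlk2 is at 0 counts in 7 of 8 differentiated libraries.

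Notch1, a receptor found in many epithelia, was nearly equal in the BCAM groups by its mean. BCAM high held 114, 131 and 162 CPM, BCAM low 59.5, 136 and 183 CPM, and differentiated 29.9, 34.5 and 72.1 CPM (lowest, median and highest). All BCAM high libraries lay above differentiated, while BCAM low and differentiated overlapped. The log2 fold change was 0.02 (SE 0.18) between the BCAM groups, 1.70 (SE 0.19) for BCAM high over differentiated and 1.67 (SE 0.19) for BCAM low over differentiated. With offsets for the average transcript length in each library, the latter differences were 0.56 and 0.52 and neither was called. With only the main coding transcript of each member counted, a choice made after seeing the data, both were called.

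Notch2, a second receptor, had the opposite order. Its levels were 65.3, 77.8 and 84.9 CPM in BCAM high, 88.0, 91.9 and 117 CPM in BCAM low and 85.9, 208 and 250 CPM in differentiated (lowest, median and highest). Every BCAM high library lay below every library of the other groups, and BCAM low overlapped with differentiated. BCAM high differed from BCAM low by -0.33 (SE 0.14) on the log2 scale, which was not called although the groups did not overlap. Whether called or not, 1.5% of all genes tested had no overlap between these groups. The differences from differentiated were -1.24 (SE 0.15) for BCAM high and -0.91 (SE 0.14) for BCAM low. Neither was called with limma on the deposited TPM, where they kept their sign, and that of BCAM low was not called in batch 2 alone.

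Notch3, a receptor known from parabasal cells of the airway, had the reverse order of Dll1. Its levels were 0.788, 3.57 and 5.04 CPM in BCAM high, 5.49, 9.14 and 13.8 CPM in BCAM low and 5.65, 16.5 and 18.5 CPM in differentiated (lowest, median and highest). BCAM high lay below both other groups without overlap, and those 2 groups overlapped. The log2 fold change of BCAM high was -1.62 (SE 0.32) against BCAM low and -2.17 (SE 0.33) against differentiated. BCAM low differed from differentiated by -0.55 (SE 0.30), which was not called. The suprabasal sum was also lower in BCAM high than in BCAM low, with overlap, and its part in the Notch3 difference was not tested. Counts were few, with 89 in the 8 BCAM high libraries, 267 in BCAM low and 221 in differentiated. In batch 2 alone the difference between the BCAM groups was -1.23 and was not called, and in batch 1 alone it was -1.90 and was called.

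**Figure D2:**
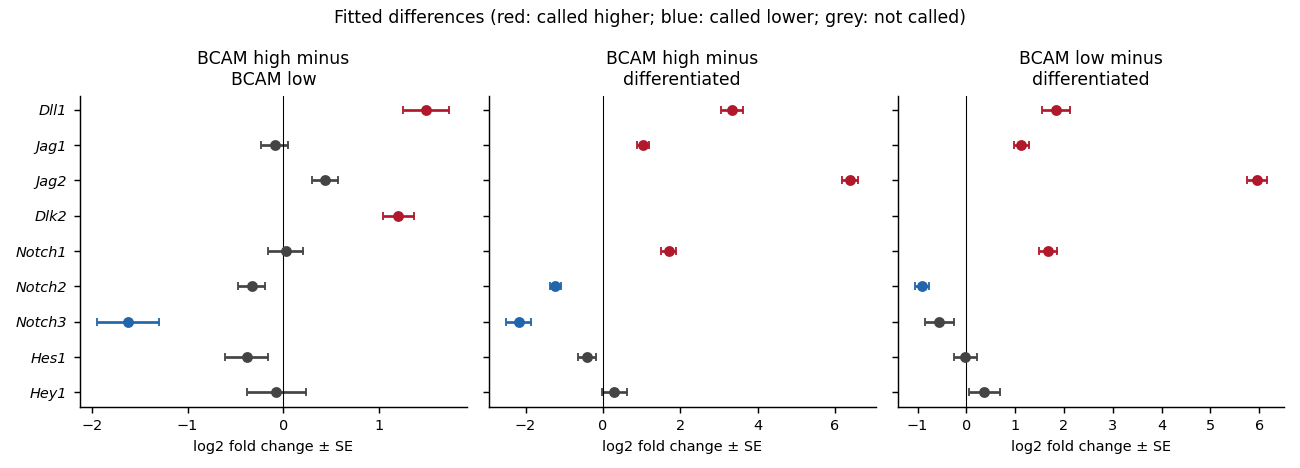
Fitted log2 fold change of the 9 tested genes with its SE (bars) in each comparison, red where called higher, blue where called lower and grey where not called; each panel has its own axis. Dlk2 has no point against differentiated, where that group held 3 counts, and Jag2 has the highest of the plotted values there (6.39 and 5.95).

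Hes1 encodes a repressor that many cells switch on when a Notch receptor is activated, and its group means were close. It held 9.72, 21.4 and 32.3 CPM in BCAM high, 16.4, 25.1 and 39.6 CPM in BCAM low and 17.5, 26.3 and 35.9 CPM in differentiated (lowest, median and highest). The 3 groups overlapped throughout. The log2 fold changes were -0.38 (SE 0.23) between the BCAM groups, -0.40 (SE 0.23) for BCAM high against differentiated and -0.02 (SE 0.23) for BCAM low against differentiated. In BCAM high it averaged 15.4 CPM over batch 1 and 28.8 CPM over batch 2, and within batch 1 alone the difference from differentiated was -0.79 and was called.

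Hey1, a related repressor, held 22.8, 38.5 and 54.5 CPM in BCAM high, 22.9, 43.5 and 59.0 CPM in BCAM low and 8.53, 27.5 and 68.2 CPM in differentiated (lowest, median and highest). The groups overlapped, and the differentiated libraries spread over both others. The log2 fold changes were -0.08 (SE 0.31), 0.29 (SE 0.32) and 0.37 (SE 0.32) for BCAM high against BCAM low, BCAM high against differentiated and BCAM low against differentiated. Intervals of this width do not show that the levels were equal.

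Nrarp, whose product promotes loss of the Notch intracellular domain, was detected at 0.240 to 3.85 CPM in BCAM high libraries, 0.504 to 5.57 CPM in BCAM low libraries and 0 to 8.44 CPM in the differentiated ones. The counts behind these values were 43, 71 and 49 over each group of 8 libraries, and 3 differentiated libraries were at 0. Nrarp was not tested over all 24 libraries. It passed the filter on low counts in 6 of the 24 fits that left out a library each, and there its group by batch interaction was called without differentiated replicate 8 (edgeR, BH-adjusted p = 0.0165) and not in the other 5 fits (up to 0.287).

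Levels of different genes can be compared only per length, so they are given in TPM (transcript abundance scaled to transcript length and to the library total). Summed over all transcripts of a gene, the order of means in BCAM high was Dlk2 (109 TPM), Jag2 (85.0), Dll1 (36.1), Notch1 (23.0), Hey1 (20.9), Hes1 (18.9), Jag1 (12.6), Notch2 (8.30), Notch3 (0.939) and Nrarp (0.755). Neighbours in that order overlapped in their ranges over libraries except Jag2 and Dll1, and Notch2 and Notch3. In BCAM low the order began with Jag2 (46.6 TPM), Dlk2 (41.3), Hey1 (20.3) and Hes1 (19.5), and the only neighbours without overlap were Notch2 (8.94) and Notch3 (2.35). In differentiated it began with Hes1 (13.8 TPM), Notch2 (11.5) and Hey1 (9.73) and ended with Jag2 (0.849) and Dlk2 (0.116), with overlap between all neighbours. With only the main coding transcript of each gene, Dll1 ranked below Hey1 (17.6 TPM), Hes1 and Notch1 (15.4) in BCAM high and stood at 4.21 TPM in BCAM low, below Notch2 (8.89), while Jag2 stood at 34.5 and 23.7 TPM. Under either count, Dlk2 and Jag2 thus led both BCAM groups and came last in the differentiated libraries, where Hes1 and Notch2 led.

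The make-up of the ligand pool was dominated by Jag2 in both BCAM groups. The 3 ligands together averaged 134 TPM in BCAM high, 71.6 TPM in BCAM low and 8.04 TPM in differentiated. Jag2 made up 63.4% ± 6.94 of that sum in BCAM high and 65.0% ± 6.41 in BCAM low, but 13.3% ± 12.9 in differentiated (SD, n = 8). Counting only the main coding transcript of each gene, Jag2 made up 56.1%, 59.7% and 5.37%, and Jag1 19.9%, 29.8% and 81.2%. Over all transcripts the Jag1 shares were 9.62%, 16.7% and 49.2%, so the size of the Jag1 share depended on which transcripts were counted, while its order across groups did not. The order of the mean Dll1 shares did depend on it. Over all transcripts the means were 27.0%, 18.4% and 37.5%, highest in differentiated. Single differentiated libraries ran from 9.52% to 65.6% (SD 24.4), from 86 counts in that group, and overlapped both BCAM groups. With the main coding transcript the means were 10.4% in BCAM low and 13.4% in differentiated, both below BCAM high. The ligand sums with the main coding transcript were 61.9, 39.3 and 4.40 TPM.

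The receptors together averaged 32.2 TPM in BCAM high, 28.4 TPM in BCAM low and 23.8 TPM in differentiated. The deposited TPM were not rescaled between libraries, and the median gene was 0.75 higher on the log2 scale in BCAM high than in differentiated, so no direction is read from these sums. Notch1 made up 67.4% ± 8.03 in BCAM high, 58.9% ± 8.28 in BCAM low and 37.8% ± 15.2 among differentiated libraries, and Notch2 29.2% ± 7.70, 32.9% ± 7.43 and 50.9% ± 13.2 (SD, n = 8). With the main coding transcript only, Notch1 made up 64.1%, 55.2% and 19.3%, and Notch2 34.2%, 39.8% and 73.7%. The main Notch1 transcript held 97.8% of the gene's estimated counts but 63.1% of its TPM, and BCAM high replicate 7 reached 66.1 TPM over all transcripts.

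**Figure D3:**
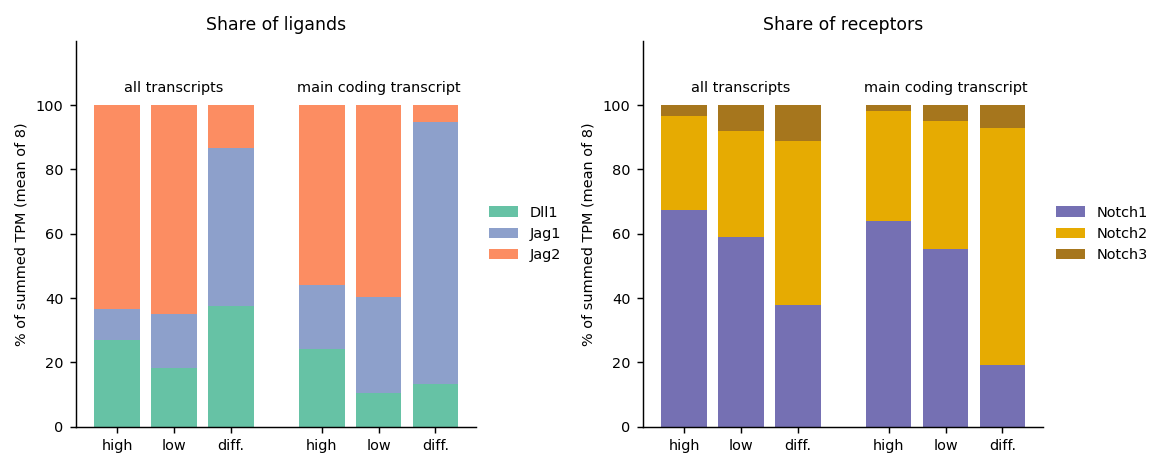
Mean share (% of summed TPM, 8 libraries a group) of each ligand and each receptor, from all transcripts (left bars of each panel) and from the main coding transcript alone (right bars). Jag2 takes 63.4% and 65.0% of the ligand sum in the BCAM groups and 13.3% in differentiated, and Notch2 takes 50.9% of the receptor sum in differentiated.

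Group differences of 3 members changed with batch. The genes were chosen with earlier results of these libraries known, which may include differences between batches. The p-values of the interaction are therefore descriptions and not independent support. An F-test of the interaction between group and batch called 3 of 9 genes, where 12.3% of all genes tested were called. Notch1 averaged 124, 152 and 32.7 CPM in batch 1 (BCAM high, BCAM low, differentiated) and 149, 92.1 and 55.1 CPM in batch 2 (edgeR interaction, BH-adjusted p = 0.00051, n = 24). The excess of BCAM low over differentiated was 2.21 on the log2 scale in batch 1 and 0.74 in batch 2, and the difference between the BCAM groups was -0.29 and 0.69. The near-equal Notch1 means of the BCAM groups thus join batches in which the sign of the difference was opposite. The BCAM low libraries of batch 2, where Notch1 was lower, had the lower suprabasal sum (1481 CPM against 3077) and the higher ciliated sum (277 CPM against 13.6), and the part of either was not tested.

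Notch2 changed with batch through the differentiated libraries, which averaged 225 CPM in batch 1 and 119 CPM in batch 2, while BCAM high stayed at 76.8 and 77.0 CPM and BCAM low at 93.0 and 102 CPM (edgeR interaction, BH-adjusted p = 0.000992). The difference of BCAM high from differentiated was -1.55 in batch 1 and -0.63 in batch 2. Hey1 averaged 41.6 CPM in the differentiated libraries of batch 1 and 14.1 CPM in those of batch 2, against 31.4 and 48.2 CPM in BCAM high (edgeR interaction, BH-adjusted p = 0.00565). Its difference between BCAM high and differentiated was -0.41 in batch 1 and 1.75 in batch 2. The lower Notch2 and Hey1 values were in the differentiated libraries with the lower secretory sum (mean 41593 CPM in batch 2, 348054 CPM in batch 1) and the higher thyroid sum, and the part of either in the result was not tested.

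The 3 interactions were called without any 1 of the 24 libraries, with the highest BH-adjusted edgeR p at 0.00322 for Notch1, 0.0107 for Notch2 and 0.0382 for Hey1. None of them was called on the deposited TPM with limma, and that of Notch1 was not called with transcript length offsets. For the 6 other tested members the lowest BH-adjusted p was 0.146, that of Dlk2. The differences of Dll1, Jag1, Jag2 and Dlk2 from differentiated had the same sign in both batches.

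**Figure D4:**
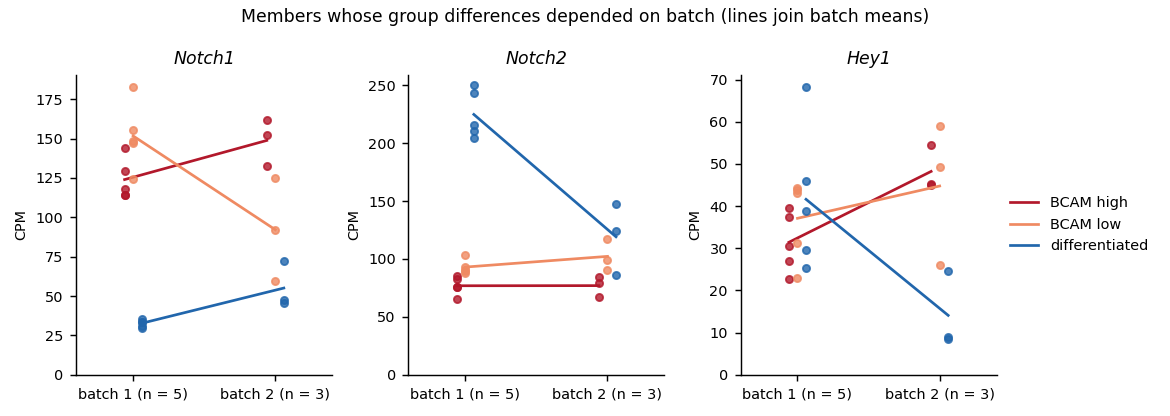
Level in CPM of Notch1, Notch2 and Hey1 in each library by batch (5 libraries of batch 1 and 3 of batch 2 a group), with lines joining the batch means. Differentiated libraries move from 225 to 119 CPM for Notch2 and from 41.6 to 14.1 CPM for Hey1, and BCAM low moves from 152 to 92.1 CPM for Notch1.

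The rest of the pathway was followed in a list of 43 other genes, of which the filter kept 32. The list was written with earlier results of these libraries known. All p-values given for its genes are therefore descriptions and not independent support. Between BCAM high and BCAM low none was called (edgeR, lowest BH-adjusted p = 0.0881, for Maml2), where 7.02% of all genes tested were. Of the 32, 4 had an unadjusted p under 0.05. The DESeq2 Wald test also called 0, while a fit of only those 2 groups called 2 and limma on log2(TPM + 1) called 1. In the main fit the list's median log2 fold change between the BCAM groups was 0.01, against 0.00 over all genes tested. No difference in the ligand-processing, receptor-cleaving or nuclear genes passed the main test between the BCAM groups, which does not show that they were equal.

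Between BCAM high and differentiated, 12 of 32 were called (10 above and 2 below differentiated in BCAM high), beside 41.3% of all genes, with 19.4% higher and 22% lower. The list's median was 0.20, against 0.02 over all genes. Of the nuclear partners, Maml2, a Mastermind coactivator, averaged 118 CPM in BCAM high and 34.5 CPM in differentiated (log2 fold change 1.75, SE 0.18, edgeR BH-adjusted p = 9.59e-09), and the groups did not overlap. Spen, a corepressor partner of RBPJ, was higher by 1.02 (SE 0.21, edgeR BH-adjusted p = 0.000225). Snw1, a cofactor in the same complex, was higher by 0.33 (SE 0.11, edgeR BH-adjusted p = 0.0178), but was not called in either batch alone.

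Of the glycosyltransferases that tune which ligand a receptor answers to, Rfng was higher in BCAM high by 1.23 (SE 0.18, edgeR BH-adjusted p = 1.46e-06) and Lfng by 1.51 (SE 0.51, edgeR BH-adjusted p = 0.0191). Rfng averaged 68.3 CPM in BCAM high and 27.1 CPM in differentiated without overlap, while Lfng averaged only 3.82 and 1.34 CPM. Lfng was not called without the filter, in batch 2 alone (1.09) or with transcript length offsets (1.34). The ubiquitin ligases that drive ligand uptake went both ways: Mib1 was higher by 0.67 (SE 0.15, edgeR BH-adjusted p = 0.000693) and Neurl1a by 1.24 (SE 0.44, edgeR BH-adjusted p = 0.0229), and Mib2 was lower, at -0.67 (SE 0.23, edgeR BH-adjusted p = 0.0226). The calls of Neurl1a and Mib2 were lost in batch 1 alone. Of the receptor-cleaving proteases, Adam10 and Adam17 were called higher, by 0.31 and 0.47, but only in 17 and 12 of the 24 fits that left out a library each, while none of the 7 tested subunits of the gamma-secretase complex was called. Among the genes listed for inhibition and turnover, Numbl, a Numb-like adaptor, was higher by 1.80 (SE 0.41, edgeR BH-adjusted p = 0.000782). The ubiquitin ligase Dtx4, also listed there, was lower, at -0.97 (SE 0.25, edgeR BH-adjusted p = 0.00232). Numbl was not called in batch 2 alone and Dtx4 was not called in batch 1 alone.

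Between BCAM low and differentiated, 7 of 32 were called, all higher in BCAM low, beside 16.3% of all genes higher and 17.1% lower. They were Mib1, Rfng, Adam10, Maml2, Spen and Numbl, which were also called higher in BCAM high, and Rbpj, the DNA-binding partner of the receptor, at 43.7 against 30.4 CPM (log2 fold change 0.53, SE 0.17, edgeR BH-adjusted p = 0.0172). The Rbpj call was lost in either batch alone (0.51 and 0.54) and with transcript length offsets (0.32). Those of Mib1, Spen and Numbl were lost in batch 2 alone and that of Adam10 in batch 1 alone. Both comparisons share the differentiated libraries. Maml2 and Rfng were called in both under all 11 alternatives run on this list. Maml2 differed by 1.26 (SE 0.18) and Numbl by 1.47 (SE 0.42) in BCAM low.

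**Figure D5:**
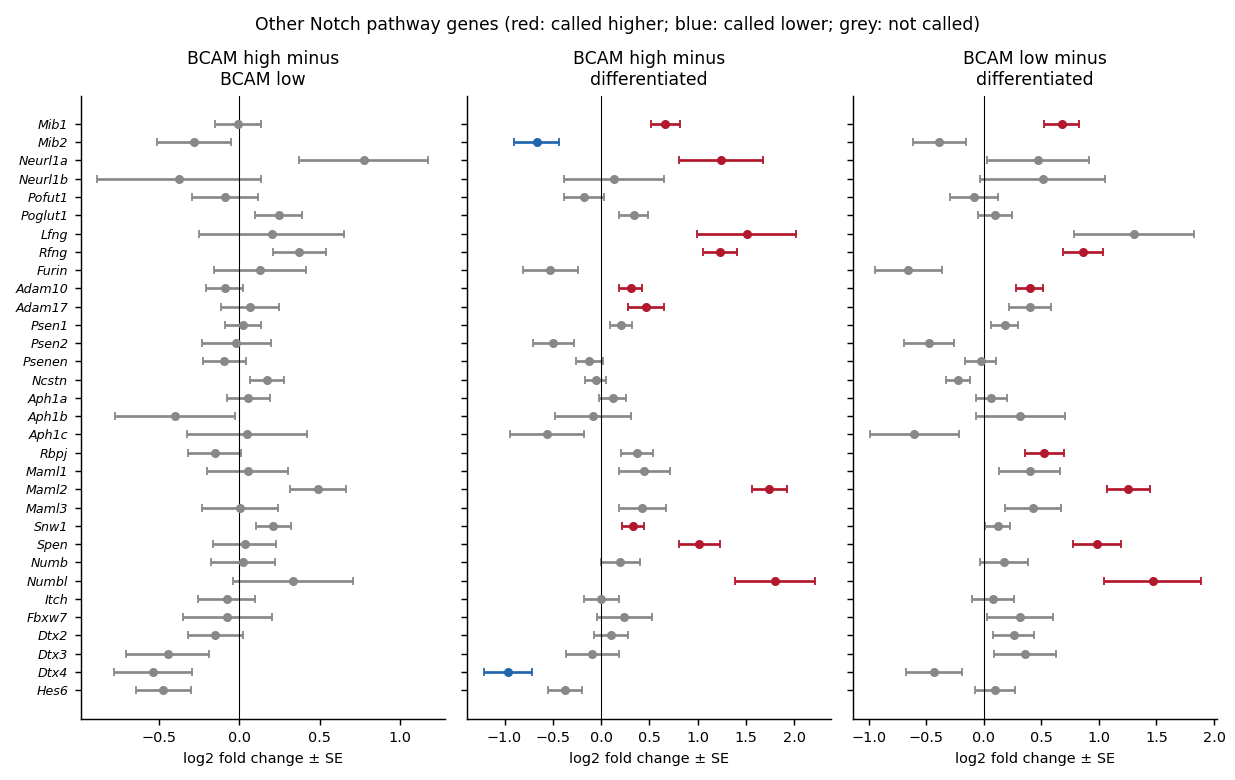
Fitted log2 fold change with its SE for the 32 tested genes of the wider Notch list, ordered by role, in each comparison; red is called higher, blue called lower and grey not called, and each panel has its own axis. No gene is coloured between the BCAM groups, 12 are between BCAM high and differentiated, and 7 are between BCAM low and differentiated.

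The group by batch interaction was called in 2 of the 32 genes, where 12.3% of all genes tested were called, so the count does not set the list apart. The 2 were Rfng (edgeR, BH-adjusted p = 0.00505) and Neurl1b (edgeR, BH-adjusted p = 0.00165). Rfng averaged 48.7 CPM in batch 1 and 101 CPM in batch 2 of BCAM high, and 28.3 and 25.0 CPM in differentiated. Neurl1b averaged 7.82 CPM in the differentiated libraries of batch 1 and 0.188 CPM in those of batch 2, where 2 of 3 libraries were at 0.

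The 11 genes under the filter were Dll3, Dll4, Dlk1, Notch4, Mfng, Dtx1, Hes2, Hes5, Hes7, Hey2 and Heyl. Heyl, a HEY-type target, stood out among them by group: it had 263 counts in differentiated (4.33 to 28.8 CPM, every library with counts), against 7 in BCAM high and 21 in BCAM low. Its highest BCAM library had 2.52 CPM, so neither BCAM group overlapped with differentiated, and without the filter it was called in both comparisons. Heyl was singled out after its values were seen. Dlk1, the paralogue of Dlk2, had 1 count in BCAM high, 6 counts in BCAM low and 0 in differentiated, and Hes5 had 3, 2 and 0 counts. Hes2 had 2 counts in BCAM high and Hey2 had 2 counts in BCAM low. These sums were at or under the 3 counts that a count of 0 allows, except the 6 of Dlk1.

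Over the 24 libraries, the genes whose pattern was most like that of 4 members were found by the lowest root mean square difference of log2 CPM, each gene centred on its mean. For Dll1 they were Mtmr11 (0.57), Fat2 (0.62) and Mthfd1 (0.62), where the median over the genes tested, without predicted genes, was 1.60. The lowest differences lie below that median by construction, so it gives a scale only. For Dlk2 they were Ces2e (0.78), Ccdc3 (0.88) and Wnt10a (0.95), against a median of 3.81. For Notch3 they were Mmp15 (0.58), Pcyt1b (0.63) and Rdh10 (0.64), against 1.28. For Hes1 they were Clta (0.36), Mtdh (0.39) and Phb2 (0.39), against 0.73. The spread of Hes1 itself was only 0.52 (SD of log2 CPM), against 1.57 for Dll1, 3.87 for Dlk2 and 1.17 for Notch3. Mmp15, the gene nearest to Notch3, averaged 13.2 CPM in BCAM high, 35.1 CPM in BCAM low and 44.5 CPM in differentiated. Wnt10a had 0 counts in every differentiated library, like Dlk2 in 7 of 8.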

How the data were processed

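Per the labels' protocols, 1000 cells a library were sorted and both fragment ends were sequenced (38 bp each, NextSeq500). Per the submitters' processing notes, the tools were Picard and kallisto (version given as 46.1) and the build was GRCm39. Per the file headers, each deposited table holds lengths, TPM and an estimated count for 117497 transcripts. Here 116374 of them matched GENCODE M21 (mouse build GRCm38) by identifier without its version; the rest held 0.317% to 0.594% of a library's counts and were left out. The authors' estimated counts were summed per gene and rounded, so reads shared by near-identical genes are divided by estimate. Reads carry no molecular identifiers and are not independent molecules.

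Tests used edgeR 4.0.16 (R 4.3.3): quasi-likelihood with a robust fit, TMM factors, edgeR's filter on low counts (minimum 10 in the libraries, 15 in total), 1 fit over all 24 libraries with group and batch, and BH adjustment over 12211 genes. CPM are counts over TMM-scaled totals, and SE is the absolute change over the square root of F. A further fit with group, batch and their product tested the interaction. The script was tested on simulated data. Alternatives were DESeq2 1.42.0 size factors and its Wald test, no filter, the replicate number as a block, no batch term, each batch alone, limma 3.58.1 on log2 of the deposited TPM plus 0.1 or 1, transcript length offsets, only the groups compared, each library left out, and, added after seeing the data, the main coding transcript alone.

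The members and lists were chosen with earlier results of these data known. Named were the 10 members, the called genes of the wider list (up to 10 per comparison by absolute log2 fold change), list genes with under 3 counts in a group, and the 3 genes most like Dll1, Dlk2, Notch3 and Hes1, without predicted genes. Adam10 and Snw1 against differentiated in BCAM high, and Neurl1b and Hes6, fell outside that rule and were named after their values were seen. Libraries were numbered by accession within a group. The labels do not say whether they came from separate animals, so p-values measure only the spread between these libraries. No 2 libraries were identical.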

Additional observations from a re-analysis of the deposited data

Results flagged for a closer look

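Over 30 sets of 8 libraries (10 genes in 3 groups), a single library stood far from the other 7 in 4. The rule flags about 1 in 20 sets by chance only where values are normally distributed. CPM values need not be, so no excess is read from the 4. Dll1 was 14.7 CPM in differentiated replicate 6, from 26 counts, with the next library at 8.11 CPM. Dlk2 was 86.3 CPM in BCAM low replicate 2, with the next at 60.2 CPM, and 1.23 CPM in differentiated replicate 8, where 3 counts stand against 0 in each other library. With 7 libraries at 0, any count in the last one meets the rule. Notch1 was 72.1 CPM in differentiated replicate 7, with the next at 47.4 CPM. Of these 4 libraries, 3 were of batch 2 of the differentiated group, which also had the lower secretory marker sums. Without differentiated replicate 6, the Dll1 difference of BCAM high from differentiated was 3.68 on the log2 scale, and that of BCAM low was 2.17. Without BCAM low replicate 2, the Dlk2 difference between the BCAM groups was 1.30. Without differentiated replicate 7, the Notch1 difference of BCAM high from differentiated was 1.86.

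The group differences of Notch1, Notch2 and Hey1 were called as different between the batches by a test of the interaction itself (edgeR, BH-adjusted p = 0.00051, 0.000992 and 0.00565). That test called 12.3% of all genes. The genes were chosen with earlier results known, so these p-values are descriptions only. The Hey1 difference of BCAM low from differentiated was -0.17 on the log2 scale in batch 1 and 1.64 in batch 2, and that of Notch2 was -1.27 and -0.22.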

How the results depend on the processing

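No called difference of a member or of the wider list changed sign under any alternative run. Leaving out each library gave 3 to 4 members called between BCAM high and BCAM low, 7 to 7 between BCAM high and differentiated and 6 to 6 between BCAM low and differentiated. It gave 0 to 1, 9 to 14 and 7 to 10 genes of the wider list, and 3 to 4 members whose differences depended on batch. The wider gene called between the BCAM groups was Hes6 without BCAM low replicate 1 and Maml2 without differentiated replicate 6, and the added interaction among the 9 tested members was Dll1 without differentiated replicate 8, a fit in which Nrarp passed the filter and was also called (edgeR, BH-adjusted p = 0.0165). Of the 12 wider genes called between BCAM high and differentiated, Mib1, Rfng, Maml2 and Spen were called in 11 of 11 alternatives, while Lfng was called in 7 of 10, Neurl1a in 8 of 10, Mib2 and Dtx4 in 7 of 11 and Snw1, Adam10 and Adam17 in 8 of 11. Between BCAM low and differentiated, Rbpj was called in 8 of 11. Between the BCAM groups, limma on log2(TPM + 0.1) and transcript length offsets each left 1 member called (Dlk2), and a fit of only those 2 groups called 5 (with Jag2 and Notch2). Of the wider list, that fit called 2 and limma on log2(TPM + 1) called 1. Between BCAM high and differentiated the wider count was 23 with limma on log2(TPM + 0.1), 22 on log2(TPM + 1) and 7 with only the groups compared; between BCAM low and differentiated limma called 20 and 18. Neither limma fit called a batch dependence in a member (0).

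The deposited TPM were not rescaled between libraries, which moved the median of all genes by 0.25, 0.75 and 0.49 on the log2 scale with 0.1 added (0.24, 0.67 and 0.42 with 1 added), in the order of comparisons above. The share of higher genes among all calls went from 34.7%, 46.8% and 48.8% to 75.8%, 88.6% and 87.3%. Relative to that shift, Notch2 remained lower in BCAM high than in differentiated: its difference was -0.43, not called, with limma on log2(TPM + 0.1). Hes1 there moved from -0.40 to 0.35, by about the shift, and was not called. Mib2 and Dtx4, called lower in BCAM high, kept that sign but were not called with either limma fit. Between the BCAM groups that share was 23.1% without the batch term and 18.8% in batch 2 alone. Dll1 and Notch3 were called there in 10 and 8 of 12 alternatives and Dlk2 in 12. In batch 2 alone, Dll1 and Notch1 were not called between BCAM low and differentiated (1.03 and 0.74).

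Same-numbered libraries of different groups correlated weakly (0.016 to 0.134 over 24 pairs, 6 of them over 0.1). Their median was 0.061, against -0.021 for libraries of unlike number in the same batch. The best match was the own number in 38 of 48 cases, among 5 candidates in batch 1 and 3 in batch 2. Libraries of the same number were thus somewhat alike, and the main fit, which has no pairing, leaves that out. A replicate block gave the same member counts (3, 7 and 6) and 0, 13 and 7 genes of the wider list. Few counts limit Notch3, Nrarp, Heyl and all values of Dlk2 and Jag2 in the differentiated group.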
